A study of Mus musculus with 60 samples.

Results

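Genes that mark adipocytes, the cells of fat, were followed in the heart and in the gastrocnemius, a muscle of the calf, of mice that differed in age and diet, with the neocortex as a tissue that holds little fat. The 9 listed genes were Adipoq, Lep, Plin1, Cidec, Fabp4, Cfd, Retn, Pparg and Car3, and a probe set was taken where the probe-to-gene table gave it a listed symbol and no other. This rule found 13 of the 45101 probe sets on the array and 7 of the 9 genes, out of 18193 genes with a symbol of their own. Fabp4 and Car3 had 4 probe sets each and Adipoq, Retn, Lep, Cidec and Pparg 1 each, and Plin1 and Cfd were not analysed here. Where a gene had several, the brightest of them on average over the 60 arrays stood for it, and the others are given beside it.

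The study asked how far a low dose of resveratrol in the diet acts like calorie restriction (CR) on gene expression in ageing tissue. All animals were male B6C3F1 hybrids (C57BL/6 x C3H/He), housed singly. Old CR mice were 30 months of age and had been held at 40% calorie restriction, as the labels put it, from 14 months, although the weekly calories in the methods put the CR diet less far below the control diet than that. Old resveratrol mice were 30 months of age and had received, also from 14 months, the control diet with resveratrol to a dose of 4.9 mg per kg body weight. Old control mice were 30 months and young control mice 5 months of age, both on the control diet (AIN93M). Each group had 5 arrays in each tissue, given as biological replicates, and the labels do not tie the arrays of different tissues to the same mice. The values are array signals, a linear brightness scaled to the same trimmed mean on each array, so that a signal can be compared between arrays for the same probe set and not between genes.

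White adipocytes store triglyceride in a single large droplet and release hormones, the adipokines. Adiponectin (Adipoq), leptin (Lep) and resistin (Retn) are adipokines, of which adiponectin raises insulin sensitivity and leptin reports the size of the fat stores to the brain. Cidec, also called Fsp27, coats the droplet and lets droplets fuse, Fabp4 (aP2) carries fatty acids in the cytosol, Car3 is a cytosolic carbonic anhydrase, and Pparg is the nuclear receptor that drives adipocyte differentiation. Heart and gastrocnemius are bordered by fat pads and hold adipocytes between muscle fibres, so dissection can carry fat into a sample. Fabp4 is also made by capillary endothelium, including that of the heart, and Car3 is abundant in skeletal muscle fibres, so neither is a marker of fat alone in these tissues.

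RefSeq promoters of build GRCm38.p6 were found for 7 of the 9 listed genes (10 promoters). The 250 bases before the start are shown for Adipoq, and for Retn and Cidec, whose signals went with that of Adipoq in both tissues below. Of the 2 Cidec promoters, the 1 with a motif match is shown. Letters that match a searched motif are in capitals.
Adipoq, chr16:23146286-23146535, plus strand: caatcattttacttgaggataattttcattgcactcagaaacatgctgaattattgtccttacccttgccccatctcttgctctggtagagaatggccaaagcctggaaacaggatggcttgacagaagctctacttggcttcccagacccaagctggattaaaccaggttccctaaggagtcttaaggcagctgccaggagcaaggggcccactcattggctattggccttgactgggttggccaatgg
Retn, chr8:3655520-3655769, plus strand: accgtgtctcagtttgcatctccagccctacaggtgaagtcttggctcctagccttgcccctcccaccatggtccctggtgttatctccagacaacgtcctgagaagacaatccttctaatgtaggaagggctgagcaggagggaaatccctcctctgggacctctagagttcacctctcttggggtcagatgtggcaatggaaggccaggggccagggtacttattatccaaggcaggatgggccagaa
Cidec, chr6:113434765-113435014, minus strand: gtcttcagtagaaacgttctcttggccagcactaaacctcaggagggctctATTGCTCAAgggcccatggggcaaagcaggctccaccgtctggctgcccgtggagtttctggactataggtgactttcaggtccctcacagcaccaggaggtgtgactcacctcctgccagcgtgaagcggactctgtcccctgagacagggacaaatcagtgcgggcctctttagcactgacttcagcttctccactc
The search covered 4 motifs on both strands. The direct repeat AGGTCANAGGTCA, bound by PPAR gamma with its partner RXR, was in none of the 10 promoters and in 0.0335% of the 32851 promoters in RefSeq. The repeated unit AGGTCA on its own, which overlaps the repeat, was in 2 of the 3 Pparg promoters and in 14.0% of all promoters. The C/EBP motif TTNNGNAAT was in 1 of the 2 Cidec promoters, where it reads ATTGCTCAA and begins 199 bases before the start, and in the Plin1 promoter, against 10.2% of all promoters. TATAAA was in 1 Pparg promoter and in 12.4% of all promoters. A match is a description of letters in this window only. Adipoq starts at position 23146536 of chromosome 16, Retn at 3655770 of chromosome 8, and Car3 and Fabp4, for which no promoter is shown, lie on chromosome 3.

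These genes were brightest in gastrocnemius or heart and dim in neocortex. Adipoq had a median signal of 3390 over the 20 gastrocnemius arrays (range 1520 to 25967), 1235 over the heart arrays (4.28 to 7213) and 5.35 over the neocortex arrays (0.778 to 22.2). Fabp4 ranged from 25862 to 50819 in hearts, 15298 to 74205 in gastrocnemius and only 2.64 to 79.7 in neocortex. Car3 was brightest in gastrocnemius, at 31727 to 69699, against 345 to 13618 in hearts and 52.7 to 119 in neocortex. Cidec stayed under 47.0 and Lep at or under 25.5 on every neocortex array. Retn and Pparg did not separate the tissues as far, with up to 179 and 145 on neocortex arrays, so both had signal where fat is scarce. The tissue levels were not tested.

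In hearts, Adipoq, Retn, Cidec, Fabp4 and Car3 had their lowest group means in old controls, below both diets and below young controls, and part of these differences passed the test. Of the 6 members tested, 3 rose in old CR hearts relative to old control hearts (Adipoq, Car3 and Fabp4) and none fell, where 7.94% of the 13285 genes tested rose and 14.1% fell. With resveratrol 2 rose (Car3 and Fabp4) and none fell, where 7.08% of genes rose and 10.5% fell. With age 1 fell (Car3) and none rose, where 3.79% of genes fell and 7.05% rose. The median log2 change of the 6 members was 1.05 with CR, 1.08 with resveratrol and -1.71 with age, against 0.00048, 0.0093 and 0.031 over all genes tested. Calls are adjusted p-values under 0.05 in limma over all genes of the tissue. CR, resveratrol and age share the old control arrays, so these 3 comparisons are not independent. In bulk tissue, fewer cells of a type and less RNA per cell cannot be told apart.

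Adiponectin was the adipokine with the widest swings in hearts. Adipoq signals were 1201, 454, 3128, 2947 and 5178 in old CR hearts and 1472, 815, 3558, 848 and 2692 in old resveratrol hearts. They were 4.28, 1270, 698, 296 and 565 in old control hearts and 1904, 7213, 773, 394 and 3258 in young control hearts. Old controls were thus lowest as a group, but all groups overlapped, and old control replicate 1 had a signal within the range of the neocortex. The log2 fold change with CR was 3.06 (SE 1.04, adjusted p = 0.0351 by limma, 8.36-fold). With resveratrol it was 2.78 (SE 1.04, adjusted p = 0.0663) and with age -2.88 (SE 1.04, adjusted p = 0.0753), neither past the threshold. Without old control replicate 1 the CR change was 1.63 (adjusted p = 0.103), and without old CR replicate 3, 4 or 5 the adjusted p was 0.0750, 0.0705 or 0.0893. Without old control replicate 2, which had the most Adipoq of its group, the changes with resveratrol and age were 3.40 and -3.49 (adjusted p = 0.0297 and 0.0395).

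Resistin, an adipokine made by white adipocytes in mice, was lower with age on every array but did not pass the test. Retn signals were 48.2, 199, 157, 79.9 and 259 in old control hearts and 402, 1405, 353, 289 and 346 in young control hearts, which do not overlap. Groups that did not overlap in this direction were found for 3.03% of the genes tested. The change with age was -1.86 (SE 0.76, adjusted p = 0.118), and it passed when only these groups were fitted (adjusted p = 0.0318). With CR the arrays were split, with 31.7 and 55.3 in old CR replicates 1 and 2 and 781, 619 and 1192 in the other 3, and resveratrol hearts lay between, at 126 to 472. Old control replicates 1, 3 and 4 and old CR replicate 2 lay within the neocortex range of 36.0 to 179. Old CR replicate 1 lay under it. The changes were 1.004 with CR (SE 0.76, adjusted p = 0.369) and 0.90 with resveratrol (SE 0.76, adjusted p = 0.470). Leptin was too dim in hearts to be tested, with a mean signal under the 60.4 that a gene had to reach. Its heart signals ran from 17.0 to 36.6 with CR, 6.27 to 143 with resveratrol, 7.04 to 107 in old controls and 7.64 to 166 in young controls.

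The droplet protein Cidec followed Adipoq in direction. Cidec signals were 134, 109, 218, 313 and 338 in old CR hearts and 285, 120, 522, 101 and 331 in old resveratrol hearts. They were 51.8, 259, 143, 61.6 and 62.9 in old control hearts and 297, 718, 191, 95.6 and 406 in young control hearts. Old control replicate 2 was the only old control above the median of the CR hearts (218). None of the changes passed, at 1.10 with CR (SE 0.53, adjusted p = 0.144), 1.26 with resveratrol (SE 0.53, adjusted p = 0.108) and -1.55 with age (SE 0.53, adjusted p = 0.0627). Without old control replicate 2 the resveratrol and age changes were 1.63 and -1.91 (adjusted p = 0.0390 and 0.0254).

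The fatty acid carrier Fabp4 varied less between the arrays of a heart group than any other member. Fabp4 signals were 42590, 42317, 47446, 43525 and 45131 in old CR hearts and 36566, 37926, 49310, 42931 and 40009 in old resveratrol hearts. They were 31715, 34167, 35195, 25862 and 33226 in old control hearts and 28067 to 50819 in young control hearts. Both diet groups lay wholly above old controls, which was so for 6.82% of genes with CR and 5.75% with resveratrol. Fabp4 rose by 0.47 with CR (SE 0.12, adjusted p = 0.00707, 1.39-fold) and by 0.37 with resveratrol (SE 0.12, adjusted p = 0.0388, 1.29-fold), and its change with age was -0.23 (SE 0.12, adjusted p = 0.246). The resveratrol call was lost without any of 3 old controls (replicates 1, 4 and 5) or of 3 resveratrol arrays (replicates 3, 4 and 5), with 0.29 as the lowest change. When every probe set was tested on its own, all 4 Fabp4 probe sets rose with CR, by 0.47, 0.97, 0.91 and 0.62, and 1 of the 4 rose with resveratrol.

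Carbonic anhydrase 3 was the member called in all 3 heart comparisons. Car3 signals were 3143, 1767, 11032, 6868 and 13618 in old CR hearts and 4573, 2912, 5284, 2833 and 7231 in old resveratrol hearts. They were 345, 2846, 1541, 596 and 1179 in old control hearts and 6202, 8496, 1735, 1654 and 6392 in young control hearts. Old control replicate 2, the brightest of its group, overlapped each of the other groups. Car3 rose by 2.48 with CR (SE 0.55, adjusted p = 0.00175, 5.58-fold) and by 2.08 with resveratrol (SE 0.55, adjusted p = 0.00871, 4.23-fold), and fell by 1.97 with age (SE 0.55, adjusted p = 0.0210). The age call did not hold without young control replicate 2 or 5 or old control replicate 1 or 4 (changes of -1.69, -1.79, -1.58 and -1.77). Another Car3 probe set, the only other one bright enough to be tested in hearts, gave 2.17 with CR (SE 0.51, adjusted p = 0.00316), 1.28 with resveratrol (SE 0.51, adjusted p = 0.0957) and -1.57 with age (SE 0.51, adjusted p = 0.0442).

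Pparg, the regulator of the adipocyte program, passed in no heart comparison. Its heart signals were 296 to 431 with CR, 168 to 420 with resveratrol, 206 to 375 in old controls and 157 to 574 in young controls, all overlapping. The changes were 0.27 with CR (95% confidence interval -0.32 to 0.86), -0.08 with resveratrol (-0.67 to 0.50) and -0.27 with age (-0.85 to 0.32).

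**Figure D1:**
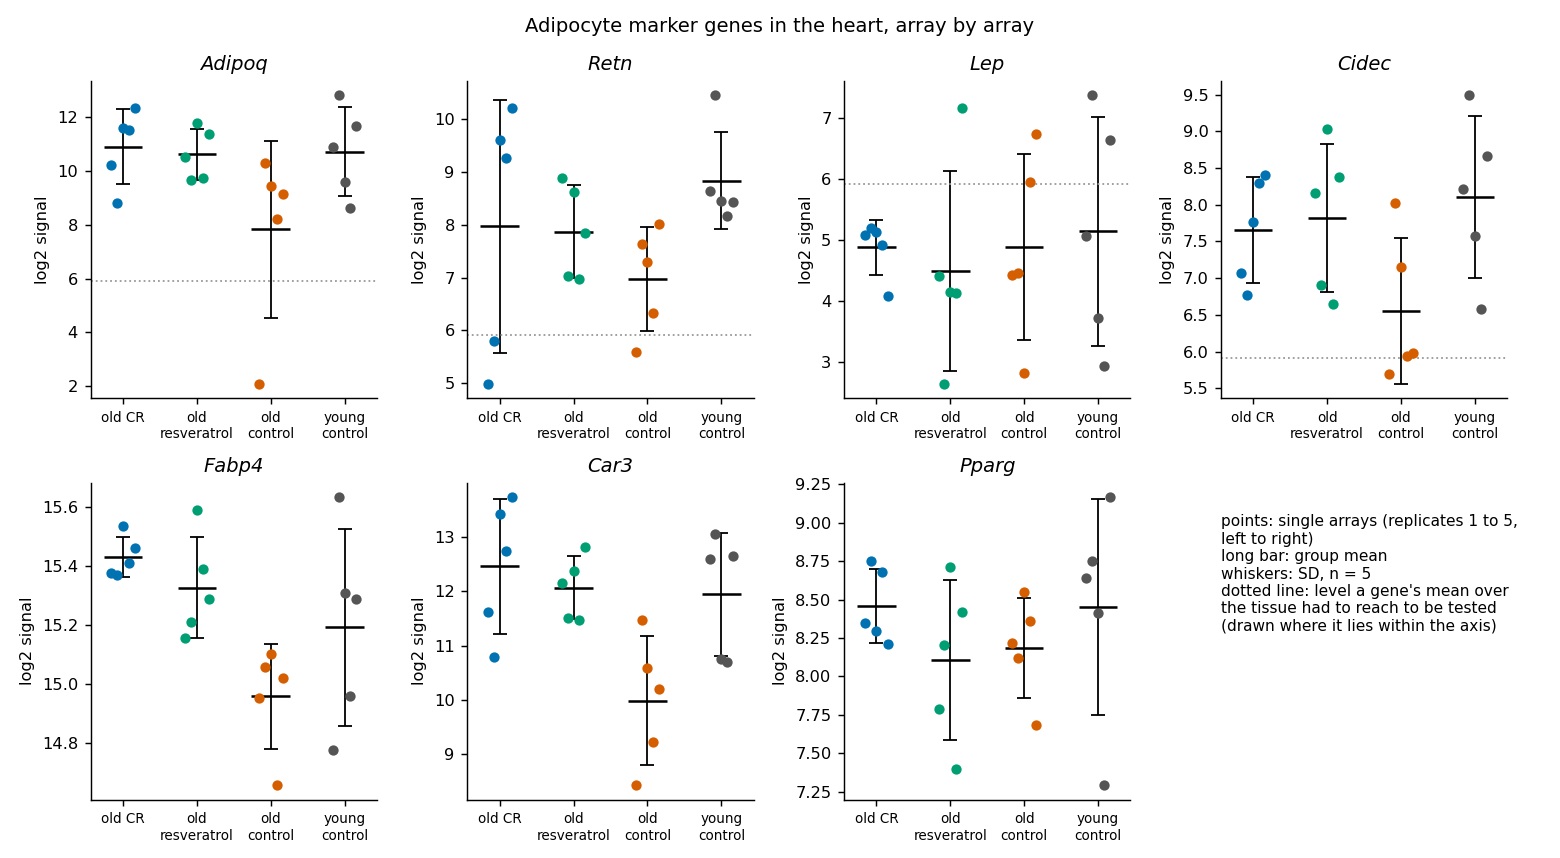
Log2 signal of the 7 adipocyte marker genes on each heart array, by group, with group means and SD (n = 5), and a dotted line at the level a gene's mean had to reach to be tested. Old control hearts have the lowest mean of Adipoq, Retn, Cidec, Fabp4 and Car3, the Adipoq point of old control replicate 1 stands far below the rest, and both diet groups of Fabp4 lie above all old controls.

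CR and resveratrol hearts were compared directly, and none of the 6 members passed the test, where 1.43% of genes were higher and 2.57% lower with CR. The difference (old CR over old resveratrol) was 0.28 for Adipoq, with a 95% confidence interval of -1.85 to 2.42, and 0.40 for Car3 (-0.73 to 1.53). Fabp4 had the narrowest interval, at 0.10 (-0.15 to 0.36). For Cidec it was -0.16 (-1.26 to 0.93), for Retn 0.11 (-1.45 to 1.66) and for Pparg 0.35 (-0.23 to 0.94).

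The heart groups also differed in measures of the RNA and in markers of other cells. The 3' minus 5' difference of beta-actin probe sets, in log2, which grows as RNA is degraded or copied short, averaged 0.787 ± 0.111 in old CR hearts, 0.819 ± 0.117 in old resveratrol hearts, 1.39 ± 0.16 in old control hearts and 0.719 ± 0.10 in young control hearts (SD, n = 5 each). Old controls stood above each other group (exact permutation test, two-sided, p = 0.00794, which is as low as groups of 5 can give, and 0.0254 adjusted over 16 tests). The poly-A spike-in controls, RNAs added during labelling, had a mean log2 signal of 9.40 ± 0.347 on CR heart arrays, 9.52 ± 0.412 on resveratrol, 10.1 ± 0.441 on old control and 9.805 ± 0.0667 on young control heart arrays (SD, n = 5 each). They were lower with CR than in old controls (exact permutation test, two-sided, p = 0.0159, adjusted p = 0.0423), whereas the adjusted p was 0.0726 with resveratrol and 0.0794 with age by the same exact test. Of 8 genes of the atrial chambers, 4 rose with CR, among them Bmp10 by 1.84, and 6 rose with resveratrol, among them Bmp10 by 2.01. With age 1 atrial gene was called, Bmp10, which fell by 2.55. The summed atrial signal was 151052 to 195523 with CR, 169390 to 212964 with resveratrol, 74061 to 161253 in old controls and 104665 to 168334 in young controls. A sum over a list is led by its brightest probe sets. Ranges of sums, here and for the gastrocnemius below, are thus descriptions, and no share over all genes was computed for them. Among 8 macrophage genes 6 rose with CR and 5 with resveratrol. With age 1 of the 8 was called, Csf1r, which rose by 0.33. It alone had a positive change with age, and the median change of the 8 macrophage genes was -0.30. Their summed signal was 16103 to 20140 with CR and 13936 to 20750 with resveratrol, both wholly above the 9712 to 13373 of old controls. Of 9 fibroblast and preadipocyte genes, 2 rose with CR (Lum by 1.51 and Dcn by 0.86), 3 rose with resveratrol and 2 fell with age (Lum by 1.14 and Col3a1 by 1.05). With CR only 4 of the 9 had a positive change, against 7 with resveratrol and 1 with age. The median change of the 9 was -0.22 with CR, 0.39 with resveratrol and -0.24 with age. Their summed signal was 44501 to 51047 with CR, 39082 to 50290 with resveratrol, 19474 to 41451 in old controls and 30444 to 46071 in young controls. Of red blood cell genes, 2 of which were tested, Alas2, the first enzyme of haem synthesis in red cell precursors, rose by 2.08 with CR (SE 0.38, adjusted p = 0.000257) and by 1.202 with resveratrol (SE 0.38, adjusted p = 0.0278), and neither was called with age. The summed signal of the 3 red cell genes with a probe set was 5535 to 22607 with CR and 3369 to 7982 with resveratrol, both wholly above the 1858 to 3153 of old controls, and 2496 to 10845 in young controls. Of 3 nerve sheath genes, Pmp22, a protein of myelin that other cells make too, rose by 0.64 with CR and by 0.47 with resveratrol (SE 0.14 each). Their summed signal was 3937 to 4637 with CR, wholly above the 2390 to 3169 of old controls, 3039 to 4650 with resveratrol and 2282 to 3740 in young controls. Among 8 slow-fibre genes, the slow myosin heavy chain Myh7 fell by 1.95 with CR and by 1.81 with resveratrol and rose by 2.05 with age (SE 0.23 each), and the troponin Tnni1 rose by 1.96 with resveratrol. Markers of mesothelium, the lining of the heart's surface, gave 1 call in these comparisons, Upk3b, which fell by 1.05 with age. The part of any of these in the adipocyte results was not tested. The shares of all genes called in hearts, given above for the members, apply to these lists too.

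In the gastrocnemius fewer of the adipocyte genes passed. With CR 1 of the 7 members tested rose (Retn) and none fell, where 17.5% of the 12831 genes tested rose and 13.6% fell. No member was called with resveratrol, where 9.42% of genes rose and 9.26% fell, or with age, where 0.429% of genes were called in either direction. All 7 members had a positive change with age, 6 had with resveratrol and 5 with CR. The median change was 0.55 with age, 0.65 with resveratrol and 0.50 with CR, against 0.030, 0.066 and 0.10 over all genes tested.

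Adiponectin in muscle was higher in old than in young controls on every array. Adipoq signals were 4752, 25967, 9815, 1656 and 3990 in old CR muscle and 3155, 10716, 5540, 5181 and 6487 in old resveratrol muscle. They were 2636, 2734, 5423, 3320 and 3459 in old control muscle and 1520, 2108, 2295, 1575 and 1584 in young control muscle. Old and young controls did not overlap, as did 2.51% of genes in this direction, and CR muscle held both the brightest array of the tissue and an array down among the young controls. The change with age was 0.92 (SE 0.46, adjusted p = 0.386), with CR 0.83 (SE 0.46, adjusted p = 0.177) and with resveratrol 0.76 (SE 0.46, adjusted p = 0.267). Without old CR replicate 4 the CR change was 1.30 (adjusted p = 0.0212), and without old CR replicate 2 its adjusted p was 0.544. The resveratrol change passed when only these groups were fitted (adjusted p = 0.0486).

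Resistin was the adipokine that passed in muscle. Retn signals were 1834, 10932, 2748, 994 and 1493 in old CR muscle and 1048, 1148, 1134, 1759 and 1414 in old resveratrol muscle. They were 430, 909, 1288, 712 and 750 in old control muscle and 310 to 731 in young control muscle. Only old control replicate 3 overlapped CR and resveratrol. Retn rose by 1.65 with CR (SE 0.43, adjusted p = 0.00679, 3.14-fold), and its changes were 0.73 with resveratrol (SE 0.43, adjusted p = 0.249) and 0.74 with age (SE 0.43, adjusted p = 0.460). Leptin, which was bright enough to be tested here, had 20.04 to 233 with CR, 116 to 296 with resveratrol, 27.2 to 272 in old controls and 47.9 to 147 in young controls. Its changes were -0.78 with CR and 0.72 with resveratrol (SE 0.67 each, adjusted p = 0.389 and 0.486).

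Among the lipid proteins of muscle, Cidec again went the way of Adipoq. Cidec signals were 267, 1355, 410, 123 and 234 in old CR muscle, 222 to 348 in old resveratrol muscle, 108 to 292 in old control muscle and 84.8 to 234 in young control muscle. The change with CR was 0.88 (SE 0.43, adjusted p = 0.125), and 1.24 without old CR replicate 4 (adjusted p = 0.0272). Fabp4 had 29282, 74205, 43447, 25110 and 29759 in old CR muscle, 21522 to 31216 in old resveratrol muscle, 23227 to 35017 in old control muscle and 15298 to 24227 in young control muscle. Old CR replicate 2 was the brightest Fabp4 array of all 40 heart and gastrocnemius arrays. The changes of Fabp4 were 0.50 with CR (SE 0.22, adjusted p = 0.0829), 0.03 with resveratrol (SE 0.22, adjusted p = 0.942) and 0.55 with age (SE 0.22, adjusted p = 0.251). Its 4 probe sets went apart in muscle when each was tested on its own. With CR, 2 of the 4 rose (by 1.11 and 0.99, adjusted p = 0.00169 and 0.0124) and another gave -0.18, and with resveratrol that same probe set fell by 1.01 (adjusted p = 0.0109), so a direction for Fabp4 in muscle depends on the probe set.

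Car3, which muscle fibres themselves make, passed in no gastrocnemius comparison. Its signals were 51426 to 69699 with CR, 49421 to 58315 with resveratrol, 44618 to 59789 in old controls and 31727 to 51814 in young controls. The changes were 0.27 with CR (95% confidence interval -0.00057 to 0.54), 0.07 with resveratrol (-0.20 to 0.34) and 0.16 with age (-0.11 to 0.43). The other 3 Car3 probe sets did not pass either, and with age gave -0.053, 1.02 and 1.04 (adjusted p = 0.930, 0.0969 and 0.137). Pparg had 138 to 259 in old control muscle and 37.1 to 158 in young control muscle, a change of 1.23 with age (SE 0.54, adjusted p = 0.310). With the diets it was -0.25 and -0.64 in CR and resveratrol muscle (adjusted p = 0.756 and 0.434).

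**Figure D2:**
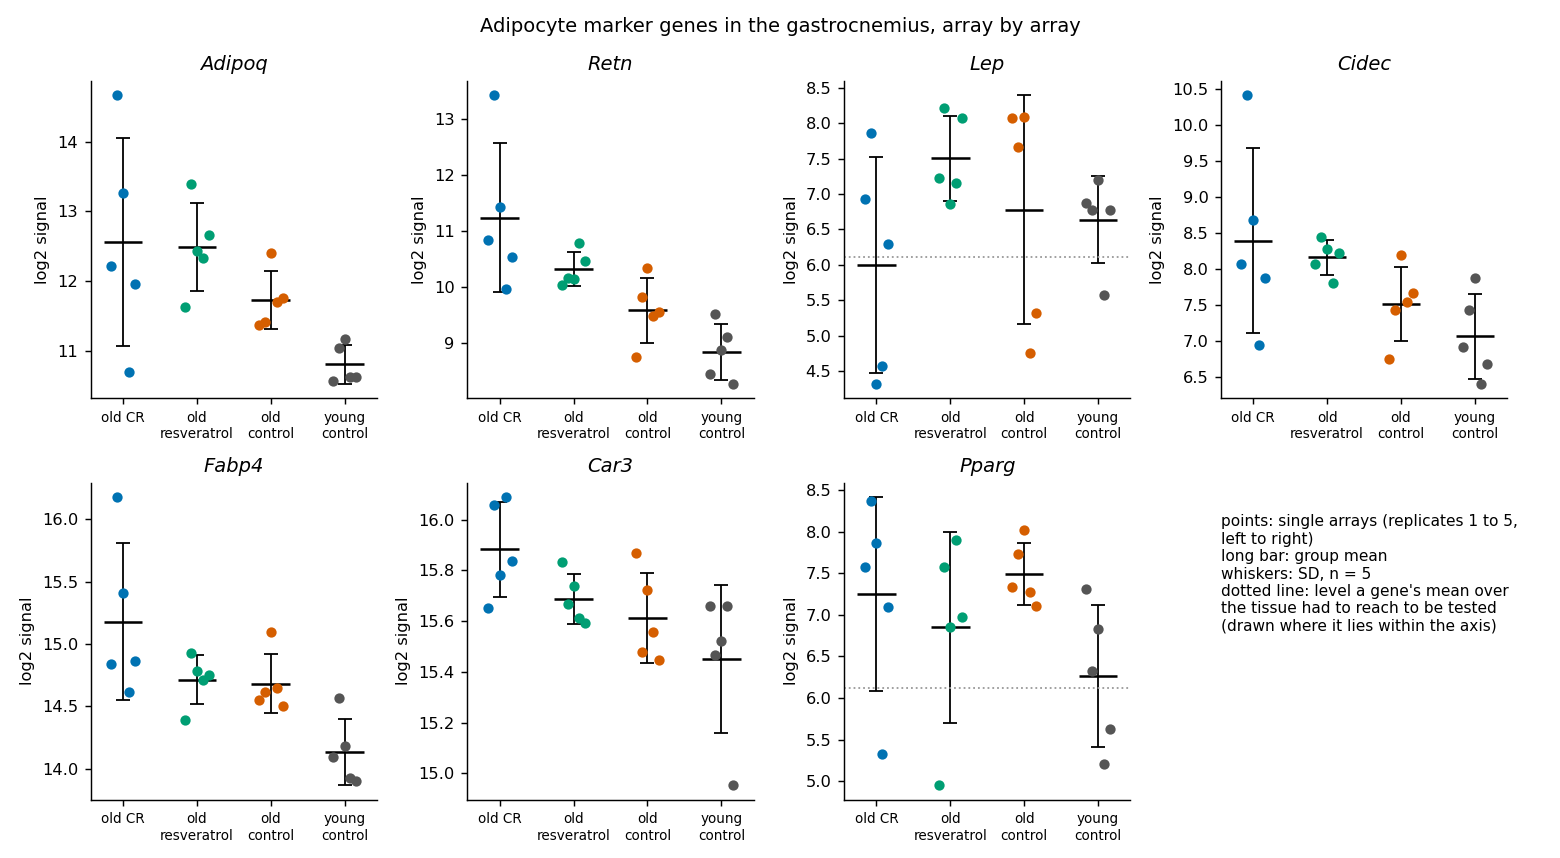
Log2 signal of the 7 adipocyte marker genes on each gastrocnemius array, by group, with group means and SD (n = 5), and a dotted line, where it lies within the axis, at the level a gene's mean had to reach to be tested. Old CR replicate 2 is the brightest array for Adipoq, Retn, Cidec, Fabp4 and Pparg, and old controls lie above all young controls for Adipoq.

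CR and resveratrol muscle were also compared directly, and no member passed the test, where 0.561% of genes did. The widest gap was for Lep, at -1.51 (95% confidence interval -2.91 to -0.11, adjusted p = 0.341), and the next for Retn, at 0.92 (0.02 to 1.81, adjusted p = 0.367). For Adipoq it was 0.07 (-0.89 to 1.03) and for Cidec 0.23 (-0.67 to 1.13).

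Labelling controls of the gastrocnemius arrays differed between groups. The poly-A spike-in controls had a mean log2 signal of 9.92 ± 0.522 on CR arrays, 10.03 ± 0.166 on resveratrol arrays, 6.78 ± 0.294 on old control arrays and 7.41 ± 0.568 on young control arrays (SD, n = 5 each). Either diet differed from old controls (exact permutation test, two-sided, p = 0.00794, and 0.0254 adjusted over 16 tests). In this tissue the spike-in level and the diets cannot be told apart. The 3' minus 5' difference of beta-actin averaged 0.183 ± 0.144 with CR and 0.165 ± 0.273 with resveratrol. It averaged 0.255 ± 0.644 in old controls and 0.0606 ± 0.624 in young controls (SD, n = 5 each). None of these groups differed by the same exact test. Among 10 genes of endothelium, which also makes Fabp4, 5 fell and 1 rose with CR, and 5 fell and 1 rose with resveratrol. The gene that rose was Gpihbp1, which anchors lipoprotein lipase on capillaries, by 1.74 with CR and 0.88 with resveratrol, and the largest fall was that of Pecam1, by 2.29 and 1.84. The summed endothelial signal was 7306 to 9136 with CR, 6288 to 7350 with resveratrol and 6060 to 9330 in old controls. In hearts, where Fabp4 rose with both diets, 2 endothelial genes rose and 4 fell with CR and likewise with resveratrol, and their sum was 18728 to 21427 with CR, 17999 to 22440 with resveratrol and 17672 to 22935 in old controls. Of 8 macrophage genes 4 rose with CR and 3 with resveratrol in muscle, and none was called with age. Their summed signal was 6837 to 12524 with CR, 7268 to 14944 with resveratrol, 5556 to 7261 in old controls and 3944 to 5192 in young controls, so that resveratrol muscle lay wholly above old controls and old controls wholly above young controls. Of 9 fibroblast and preadipocyte genes 1 rose (Pi16 by 0.67) and 2 fell with CR (Col1a1 by 2.05 and Pdgfrb by 0.57), and 1 rose with resveratrol (Pi16 by 1.07). Nerve sheath genes gave 1 rise with CR (Sox10 by 0.73) and 2 falls with resveratrol (Mbp by 0.96 and Pmp22 by 0.55), and slow-fibre genes 1 fall with CR (Myh7 by 1.07) and 2 with resveratrol (Myl3 by 1.45 and Tnnt1 by 0.69). The 1 red blood cell gene tested in muscle was not called. The part of these in the adipocyte results was not tested. The shares of all genes called in each tissue, given above for the members, apply to these lists too.

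Whether the heart changed differently from the muscle was tested in a joint fit of both tissues (heart change minus gastrocnemius change). For Car3 the CR change was 2.21 larger in hearts (SE 0.62, adjusted p = 0.00977) and the resveratrol change 2.01 larger (SE 0.62, adjusted p = 0.0236), and no other member passed for either diet. Car3 had a median signal of 51783 over gastrocnemius arrays and 3027 over hearts. On the log2 scale an equal gain in signal counts for less where the level is higher. The part of this level in the Car3 difference was not tested. Of the genes tested, 19.6% passed for CR and 15.4% for resveratrol, in either direction. With age all 6 members had a negative difference and none passed, where 2.66% of genes did. The age differences were -3.80 for Adipoq (SE 1.25, adjusted p = 0.0882), -2.61 for Retn, -2.13 for Car3 (SE 0.62, adjusted p = 0.0523), -1.998 for Cidec, -1.50 for Pparg and -0.78 for Fabp4 (SE 0.26, adjusted p = 0.0862). No member passed for resveratrol without the 4 arrays that earlier results had named as standing apart (heart young control 1, heart old control 4, gastrocnemius young control 4 and gastrocnemius old control 1).

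**Figure D3:**
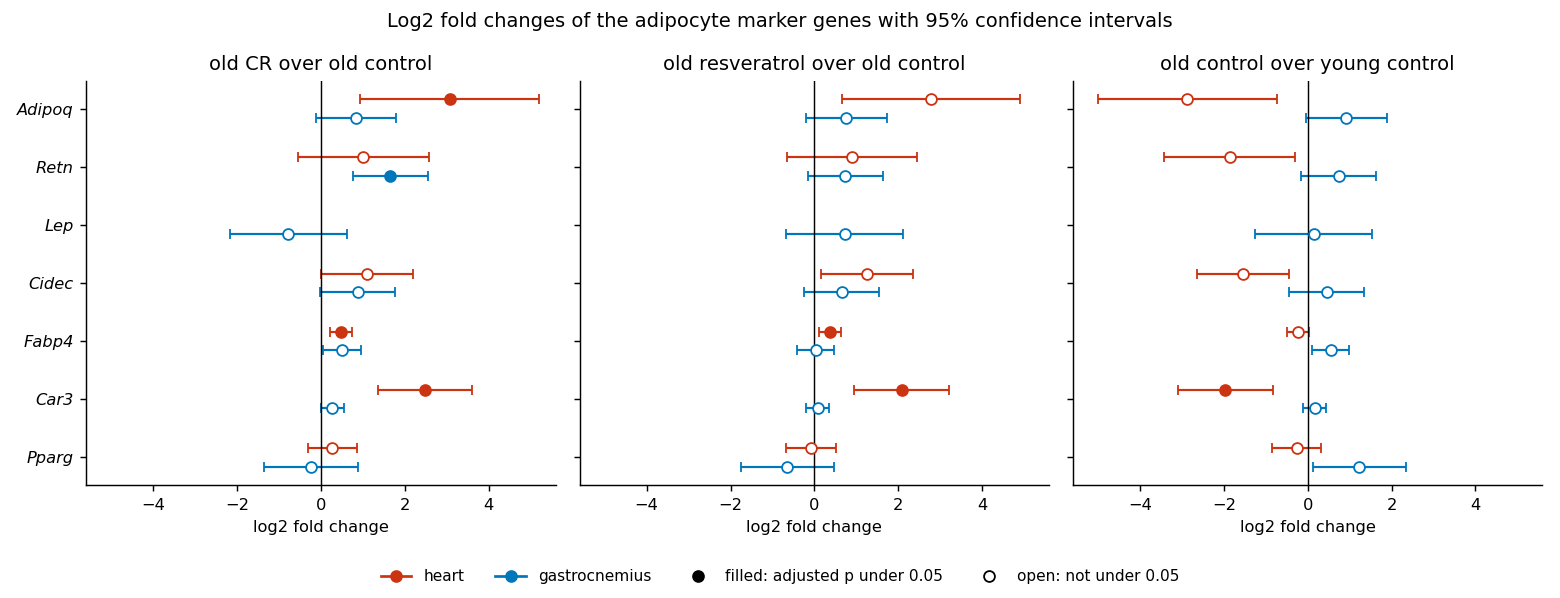
Log2 fold change of each member with its 95% confidence interval, in hearts (red) and gastrocnemius (blue), for old CR over old control, old resveratrol over old control and old control over young control, with filled points for adjusted p under 0.05 in limma. With age the heart points lie left of 0 and the gastrocnemius points right of it for all 6 members shown in both tissues, and filled points are found for Adipoq, Fabp4 and Car3 with CR, Fabp4 and Car3 with resveratrol and Car3 with age in hearts, and for Retn with CR in gastrocnemius.

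Single arrays were high or low for several of these genes at once. Heart young control replicate 2 ranked first of 20 hearts for Adipoq, Retn, Lep, Cidec and Fabp4. Heart old control replicate 1 ranked last for Adipoq, Cidec and Car3, and replicate 4 of that group next to last for the same genes and last for Fabp4. That replicate 4 also had the largest 3' minus 5' difference of beta-actin of all hearts, at 1.66. In gastrocnemius, old CR replicate 2 ranked first for Adipoq, Retn, Cidec, Fabp4 and Pparg, whereas old CR replicate 4 ranked 17 for Adipoq and first for Car3.

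This was measured as the correlation of each member with Adipoq over the 20 arrays of a tissue after subtraction of group means, with 100000 permutations within groups and adjustment over 12 relations. In hearts Car3 followed Adipoq most closely (Pearson r = 0.847, Spearman rho = 0.871, adjusted p = 6e-05 and 4e-05 by permutation test). Cidec (r = 0.742, rho = 0.842) and Retn (r = 0.640, rho = 0.725) did so too (adjusted p = 0.000384 for r of each by permutation test). Heart Fabp4 (r = 0.353, rho = 0.555, adjusted p = 0.224 and 0.0342), Lep (r = 0.321, rho = 0.301, adjusted p = 0.262 and 0.294) and Pparg (r = 0.263, rho = 0.310, adjusted p = 0.262 and 0.264) did not pass for r by permutation test, and Fabp4 passed for rho alone. Without the 2 arrays farthest from the median of Adipoq (old control 1 and young control 4), r was 0.937 for Car3, 0.897 for Cidec, 0.762 for Retn, 0.5004 for Fabp4, 0.271 for Lep and 0.209 for Pparg. The unadjusted p of Car3 was 1e-05, the smallest that these permutations can give.

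In gastrocnemius the order was another. Fabp4 (r = 0.914, rho = 0.875, adjusted p = 8e-05 and 0.00036 by permutation test) and Cidec (r = 0.902, rho = 0.868, adjusted p = 6e-05 and 4e-05) followed Adipoq most closely. Retn (r = 0.830, rho = 0.690, adjusted p = 0.0017 and 0.00798) and Pparg (r = 0.715, rho = 0.592, adjusted p = 0.00442 and 0.0230) came next by permutation test. Car3, the closest in hearts, did not pass here (r = -0.030, rho = -0.147, adjusted p = 0.912 and 0.601 by permutation test), and Lep had r = 0.403 and rho = 0.131 (adjusted p = 0.262 and 0.636). Without the 2 farthest arrays (old CR 2 and old CR 4) r was 0.828 for Fabp4, 0.710 for Cidec, 0.524 for Retn, 0.572 for Pparg, -0.018 for Lep and -0.069 for Car3.

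**Figure D4:**
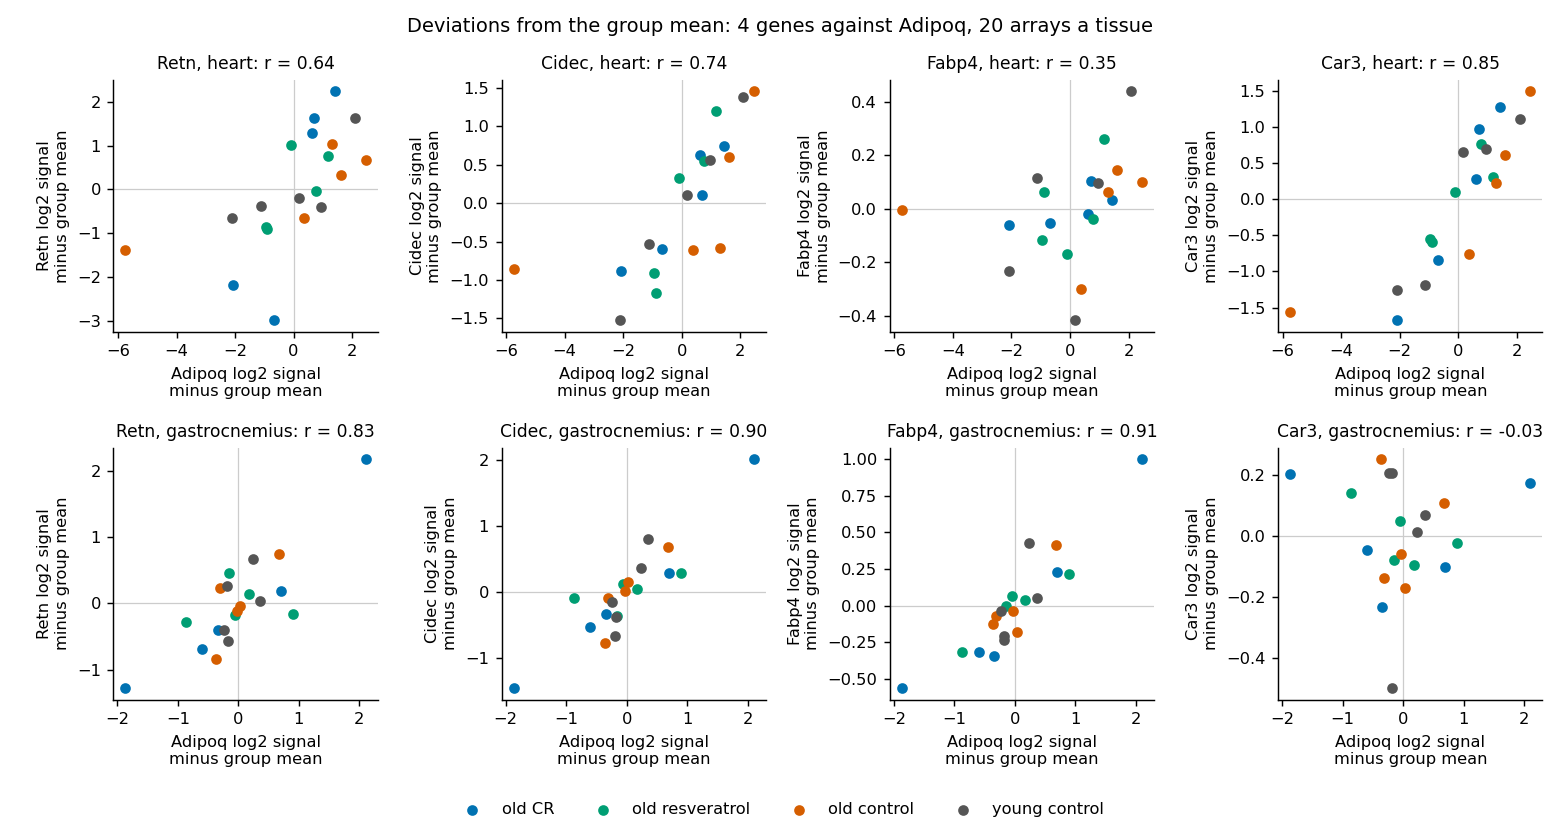
Log2 signal minus the group mean of Retn, Cidec, Fabp4 and Car3 against that of Adipoq on the 20 arrays of each tissue, coloured by group, with Pearson r above each panel. In hearts Car3 (r = 0.847) and Cidec (r = 0.742) rise with Adipoq and Fabp4 does so less closely (r = 0.353), whereas in gastrocnemius Fabp4 (r = 0.914) and Cidec (r = 0.902) rise with it and Car3 (r = -0.030) does not, and the array at the upper right there is old CR replicate 2.

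The genes outside the list that went with Adipoq most closely over the 20 hearts were Elovl6 (r = 0.942), Adig (0.915), Ucp1 (0.911), Scd1 (0.894), Rbp4 (0.867), Kcna2 (0.848), Upk3b (0.838) and Orm1 (0.838), out of 13284 genes ranked. Among those ranks Car3 stood at 7, Cidec at 30 and Retn at 88. Elovl6 elongates and Scd1 desaturates fatty acids, adipogenin (Adig) is a small membrane protein of adipocytes, and Ucp1 is the uncoupling protein of brown fat. Ucp1 signals in hearts were 57.9 to 3151 with CR, 696 to 7769 with resveratrol, 12.3 to 2233 in old controls and 261 to 5840.2 in young controls, overlapping in all groups. Old control replicate 1 had the least Ucp1 of all hearts, as it had the least Adipoq. The 3 called in a heart comparison were Rbp4, the plasma retinol carrier, which rose by 1.53 with CR (SE 0.32, adjusted p = 0.000914) and by 1.25 with resveratrol and fell by 1.06 with age, Adig, which rose by 1.42 with CR (SE 0.49, adjusted p = 0.0374), and Upk3b. In gastrocnemius the closest were Enpep (r = 0.929), Pygl (0.884), Prkar2b (0.884), Mmd (0.876), Car5b (0.872), Pepd (0.869), Plin2 (0.856) and Bloc1s2 (0.855), none of which was among the closest in hearts. By rank they were less close, with Spearman rho from 0.641 (Mmd) to 0.835 (Car5b), against 0.722 to 0.928 for the genes in hearts. Mmd, which had the lowest rho, reached 7295 on its brightest old CR array, against a group median of 1621. Over 20 arrays these are descriptions, and the arrays share scaling and dissection.

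Genes of fat storage outside the markers were called in both directions, in resveratrol hearts at about the shares of all genes. Over all genes tested in hearts, 7.94% rose and 14.1% fell with CR, and 7.08% rose and 10.5% fell with resveratrol. With age 7.05% of those genes rose and 3.79% fell. Between CR and resveratrol hearts 1.43% were higher and 2.57% lower with CR. In hearts, of 27 tested, 5 rose and 2 fell with CR. Those that rose included Pck1, which makes the glycerol backbone of triglyceride in fat, by 2.19 (SE 0.67, adjusted p = 0.0194) and hormone-sensitive lipase Lipe by 0.999 (SE 0.29, adjusted p = 0.0135). The lipase Pnpla2 and its inhibitor G0s2 fell with CR, by 0.81 and 1.92 (SE 0.13 and 0.15). With resveratrol Pnpla2 fell by 1.41 and G0s2 fell by 1.199, and both rose with age, by 0.99 and 1.34. With resveratrol 2 of the 27 rose, among them Thrsp, which promotes fat synthesis, by 1.41 (SE 0.49, adjusted p = 0.0454), and 3 fell. With age 4 rose and 3 fell, the falls including Acly and Agpat2, enzymes of fatty acid and triglyceride synthesis, by 1.38 and 0.82. The direct comparison of CR with resveratrol hearts called 5 genes higher with CR and 1 lower. The droplet protein Plin4 went opposite ways, as it rose by 0.59 with CR and fell by 0.56 with resveratrol (difference 1.15, SE 0.13, adjusted p = 6.36e-06). Lipe was higher with CR by 1.10 (SE 0.29, adjusted p = 0.0296) and the droplet protein Plin5 by 0.66 (SE 0.087), whereas for G0s2 the difference was -0.72 (SE 0.15). The median change of the list in hearts was 0.29 with CR, 0.10 with resveratrol and -0.21 with age.

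Over all genes tested in gastrocnemius, 17.5% rose and 13.6% fell with CR, and 9.42% rose and 9.26% fell with resveratrol. With age 0.429% of those genes were called, and 0.561% between CR and resveratrol, in either direction. Of the 27 fat storage genes, 6 rose and 1 fell with CR. The largest rises were those of the droplet proteins Plin5 (2.35, SE 0.32) and Plin4 (1.22, SE 0.25) and of Dgat1 (1.21, SE 0.25), which makes triglyceride. With resveratrol Plin5 rose by 1.16 and 7 genes fell, 3 of them enzymes of fatty acid synthesis, Elovl6 by 2.66 (SE 0.64), Acly by 1.81 (SE 0.41) and Fasn by 1.44 (SE 0.46). The direct comparison of CR with resveratrol muscle called Elovl6 (3.15, SE 0.64, adjusted p = 0.0241) and Acaca (1.18, SE 0.25, adjusted p = 0.0298), both higher with CR. With age G0s2 alone was called, and rose by 1.71 (SE 0.31). The median changes were 0.45 with CR, -0.21 with resveratrol and 0.17 with age.

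The transcription factors around Pparg and the receptors for adipokines were called in both directions. The shares of all genes called, given above for the fat storage genes, apply to these lists and to the brown fat genes below. Among 11 adipocyte regulators tested in hearts, 2 rose with CR (Cebpd by 0.72 and Klf15 by 0.65) and 3 fell, among them Mlxipl by 0.69 and Rxra, the partner of Pparg, by 0.49, and with resveratrol none rose and 3 fell (Rxra by 0.49, Klf4 by 0.43 and Srebf1 by 0.35). With age 1 rose and 1 fell, Klf15 by 0.68. In gastrocnemius 2 of 12 rose with CR (Cebpd by 1.48 and Klf4 by 1.12) and 3 fell, among them Zfp423 by 2.48 and Srebf1 by 1.44, whereas none was called with age. With resveratrol 2 of the 12 rose there (Klf4 by 0.81 and Ebf1 by 0.73) and Srebf1 fell by 1.13, and Cebpd was higher with CR than with resveratrol by 1.15 (SE 0.26, adjusted p = 0.0391). Of 17 adipokine receptors and other adipokines in hearts, 5 rose with CR, among them the chemerin gene Rarres2 by 0.94 (SE 0.14) and Mest by 0.86 (SE 0.31). Of the adiponectin receptors, named here after their values were seen, Adipor1 fell by 0.40 with CR (SE 0.11). With resveratrol 4 rose and 3 fell, Rarres2 by 1.03 and Mest by 1.29 among the rises. The falls were those of the insulin receptor Insr by 0.64, Adipor1 by 0.53 and Adipor2 by 0.46. With age 2 rose, the insulin receptor Insr by 0.81 (SE 0.13) and Nampt by 0.61 (SE 0.12), and 3 fell, among them Mest by 1.32 (SE 0.31). In gastrocnemius 2 of 18 rose with CR (Rbp4 by 0.90 and Apln by 0.85) and 4 fell, among them the leptin receptor Lepr by 1.06 (SE 0.38) and T-cadherin (Cdh13), which binds adiponectin, by 0.86 (SE 0.18). With resveratrol 1 of the 18 rose, Nnat by 1.85 (SE 0.49), and 2 fell, Cdh13 by 0.73 and Adipor1 by 0.55 (SE 0.10). Adipor1 also fell there with CR, by 0.56 (SE 0.10). No gene of that list was called with age in gastrocnemius, though 16 of 18 had a positive change.

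Of 7 brown fat genes tested in hearts, only Prdm16 was called with CR, resveratrol or age, falling by 0.81 with CR and 1.47 with resveratrol and rising by 0.64 with age. In gastrocnemius 3 of 7 rose with CR, Cidea by 1.48 (SE 0.50, adjusted p = 0.0287), Ppargc1a by 0.69 and Dio2 by 0.62, and none was called with resveratrol. With age Ppargc1a fell by 1.26 (SE 0.21, adjusted p = 0.00573), and it was higher with CR than with resveratrol by 1.25 (SE 0.21, adjusted p = 0.00900). In hearts Prdm16 was higher with CR than with resveratrol by 0.66 (SE 0.16). Ppargc1a and Dio2 are also made by muscle fibres.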

How the data were processed

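RNA from heart, gastrocnemius and neocortex was hybridised to Affymetrix Mouse Genome 430 2.0 arrays (60 arrays, 5 per group in each of 4 groups and 3 tissues). The authors deposited linear signal intensities from GCOS 1.2, scaled on each array to a trimmed mean of 500, and no detection calls or dates were used here. Here the arrays were brought to a common 2% trimmed mean, a floor of 1 was set, and signals were put on the log2 scale. Genes were named through the platform's probe-to-gene table, in which 34945 probe sets have 1 symbol, 932 several and 9160 none. A gene was tested where the mean log2 signal of its brightest probe set reached the 40th percentile of the non-control probe sets of the tissue, which left 13285 genes in heart, 12831 in gastrocnemius and 12084 in the joint fit of both.

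For each tissue a single limma 3.58.1 model held its 4 groups (lmFit, eBayes with trend, R 4.3.3). Benjamini-Hochberg adjustment ran over all genes tested, with a threshold of 0.05. Tissue differences were fitted over 40 arrays, as if tissues came from separate mice. Permutation tests and tables used Python 3.11.15, numpy 2.4.6, scipy 1.17.1 and pandas 2.3.3, and figures matplotlib 3.10.9. The number of arrays limits the precision. On simulated data for CR, 52.8% of genes changed by 1 on the log2 scale were found in heart (13285 genes) and 70.8% in gastrocnemius (12831 genes). These shares are averages over the genes changed in the simulation. In hearts Adipoq, Retn, Car3 and Cidec had SEs of 1.04, 0.76, 0.55 and 0.53. The share found among genes of such spread was not measured.

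The members, the lists of fat storage, regulator, adipokine, brown fat, fibroblast, endothelial, macrophage, mesothelial, red blood cell, nerve sheath, slow-fibre and atrial genes, and the rule for named genes (every member, up to 4 called genes of a list with the largest change, and the 8 genes most like Adipoq in each tissue) were chosen with earlier results of these data known. The mapping of samples to groups and replicate numbers came from the titles. The replicate numbers did not pair the samples: correlations of deviations of samples with the same number ran from -0.200 to 0.148. Alternatives were quantile normalization, other filters on low signal, an offset of 64, other variance models, the methods' t-test, other ways to combine probe sets, a replicate block and leaving out arrays.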

Additional observations from a re-analysis of the deposited data

Results flagged for a closer look

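In 56 groups of 5 arrays examined (7 members, 2 tissues and 4 groups), 6 arrays stood apart from the rest of their group by Dixon's test at 95% on the log2 scale, and chance flags about 1 in 20 groups. The lowest in their groups were Adipoq in heart old control replicate 1, at a signal of 4.28, Car3 in gastrocnemius young control replicate 5, at 31727, Lep in gastrocnemius young control replicate 4, at 47.9, and Lep in heart old CR replicate 5, at 17.0. The highest were Fabp4 in gastrocnemius old control replicate 3, at 35017, and Retn in heart young control replicate 2, at 1405. Gastrocnemius young control replicate 4 also had the largest 3' minus 5' difference of beta-actin in its group, at 1.11.

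The change of Car3 differed between the tissues in the joint fit. It was larger in hearts than in gastrocnemius by 2.21 with CR (SE 0.62, adjusted p = 0.00977) and by 2.01 with resveratrol (SE 0.62, adjusted p = 0.0236), on the log2 scale. The median Car3 signal was 3027 over hearts and 51783 over gastrocnemius arrays, and the part of this in the difference was not tested.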

How the results depend on the processing

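Of 240 values of counts and correlations under alternatives, 187 stayed on their side of the threshold or within 1.5 times, and of 668 changes of single members 612 kept their direction and their side of the threshold. In each value given here as moved, the cause was not tested. In hearts with CR, 3 members were called, 2 to 3 without 1 array and 1 (Fabp4) by each form of the methods' t-test. In hearts with age, 1 was called, 0 without trend, by every form of the methods' t-test or without the arrays that stand apart, 2 with only the groups compared, and 0 to 3 without 1 array. In hearts with resveratrol, 2 were called, 1 with no filter, without trend or with averaged probe sets, 0 by the methods' t-test after Benjamini-Hochberg and 1 before it, and 1 to 4 without 1 array. In gastrocnemius with CR, 1 was called, 2 after quantile normalization, with every probe set on its own or averaged per gene, 0 by every form of the methods' t-test, and 1 to 4 without 1 array. In gastrocnemius with resveratrol, 0 were called, 1 after quantile normalization (Car3) or with every probe set on its own (Fabp4), 2 with only the groups compared and 0 without 1 array. In gastrocnemius with age, 0 were called, and 2 by the methods' t-test on log2 signal before adjustment. For the tissue difference with age 0 were called, and 1 with an offset, a stricter filter or averaged probe sets (Car3), and for that with resveratrol 1 was called, and 0 with averaged probe sets or without the arrays that stand apart.

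Without the arrays that stand apart, heart Fabp4 followed Adipoq with r = 0.531 (adjusted p = 0.00314 by permutation test), and gastrocnemius Car3 turned to r = 0.034 (adjusted p = 0.908). Changes that turned sign were all short of the threshold. Without 1 array, Pparg in gastrocnemius ran from -0.53 to 0.23 with CR, and CR against resveratrol there ran from -0.46 to 0.54 for Adipoq, -0.27 to 0.59 for Cidec and -0.079 to 0.88 for Pparg. Likewise Lep with age in gastrocnemius ran from -0.18 to 0.65 and Fabp4 with resveratrol from -0.024 to 0.13, and in hearts CR against resveratrol ran from -0.075 to 0.80 for Adipoq, -0.46 to 0.14 for Cidec and -0.46 to 0.85 for Retn, and Pparg with resveratrol from -0.23 to 0.095. In gastrocnemius the average of a gene's probe sets gave -0.13 for Car3 in CR against resveratrol, and for Fabp4 -0.076 with age and -0.042 with resveratrol. Quantile normalization gave -0.0011 for Car3 with age and -0.014 for Fabp4 with resveratrol. Without the arrays that stand apart Lep with age was -0.44 and Fabp4 with resveratrol -0.0016, and on unlogged signal Pparg with CR differed by 1.02 signal units.

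The replicate block, whose numbers did not pair the samples, called 2 members in gastrocnemius with CR (Fabp4 and Retn) and 1 for the tissue difference with age (Fabp4), and the same number as without it in the other comparisons. Over all genes it called 2928 in hearts with CR, against 2922 without it, and 3906 in gastrocnemius with CR, against 4001.

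Counts over all genes moved most in the comparisons with few calls. In gastrocnemius with age, 55 were called, and 2 to 558 by forms of the methods' t-test, 102 with averaged probe sets and 192 without the arrays that stand apart. For CR against resveratrol in gastrocnemius 72 were called, and 0 to 592 by those tests, 111 after quantile normalization, 17 with only the groups compared, 46 with averaged probe sets and 139 without the arrays that stand apart. In hearts 531 were, and 295 to 1057, 299 with averaged probe sets and 950 without those arrays. The methods' t-test after Benjamini-Hochberg called 653 on log2 signal and 755 on unlogged signal in hearts with age (1440 by limma), and 2654 on log2 signal, or 2624 before adjustment, in gastrocnemius with CR (4001). Averaged probe sets called 1457 in hearts with resveratrol (2330). Signals carry no counts, so the dimmest members, Lep in hearts and Pparg and Lep in gastrocnemius, are limited by background in a way that was not measured here.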
